A study of Mus musculus with 14 samples.

Results

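Organoids grown from mouse intestine that had lost Apc were compared with organoids lacking Apc together with Prox1, within series 1 of a study run in 2 series. The comparison used every entry labelled series 1 that was not a copy of another array, which left 6 of the 14 deposited entries: Apc-deleted replicates 1 to 4 and Apc-Prox1-deleted replicates 1 and 2. Apc-Prox1-deleted series 1 replicates 3 and 4 were left out, because each held the same array as an entry of series 2. Replicate 3 copies an Apc-Prox1-deleted entry of series 2, but replicate 4 copies one labelled Apc-deleted, so its labels give opposite genotypes. All cultures were of strain C57Bl, from mice 2 to 3 months old, and carried villin-CreER, a Cre recombinase that the villin promoter expresses in intestinal epithelium and that tamoxifen switches on. The Apc-deleted group was Apcflox/flox, and the Apc-Prox1-deleted group was Prox1flox/flox as well, so the Apc deletion and the tamoxifen were shared by both groups. Tamoxifen was given for 2 days, R-Spondin1 was then withheld for 5 days to select organoids without Apc, and total RNA was taken 7 days after tamoxifen and hybridised to Illumina arrays. No undeleted culture is among the 14 entries. Nothing in the labels says that replicates are separate mice or cultures. The p-values therefore rest on the spread among these 6 libraries, part or all of which may be technical.

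Apc is part of the complex that marks beta-catenin for destruction. Without it beta-catenin accumulates, enters the nucleus with TCF/LEF factors and keeps Wnt target genes on without R-Spondin1, a ligand that crypt stem cells otherwise need. Prox1 is a homeobox transcription factor known for setting lymphatic endothelial identity. In the gut it marks enteroendocrine cells and is a target of beta-catenin/TCF in intestinal tumours.

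Levels are log2 values recovered from the deposited ratios, with the array median at 6.78, which is also the floor region where a probe with no transcript lies. A change that ends there is understated. Genes were read through their brightest probe, and rose, fell and passed refer to limma's moderated test with a Benjamini-Hochberg adjusted p under 0.05 over all 25491 probes tested. The 4 Apc-deleted libraries correlated at r of 0.986 to 0.9954 across probes and the 2 Apc-Prox1-deleted libraries at 0.9956, against 0.9714 to 0.9798 between genotypes. The first principal component held 60.5% of the variance and separated the genotypes. The second set Apc-deleted replicates 1 and 2 (14.9 and 11.4) apart from replicates 3 and 4 (-17.3 and -7), and the labels give no batch to which this could be tied. The number of arrays limits the precision, above all the 2 arrays of the Apc-Prox1-deleted group.

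Some sex-linked transcripts differed between the genotypes in series 1. Xist, the noncoding RNA made from the inactive X chromosome of female cells, read 9.30, 9.99, 9.87 and 10.21 in Apc-deleted replicates 1 to 4 and 6.68 and 6.69 in Apc-Prox1-deleted replicates 1 and 2. In series 2 it read 6.64 and 6.66 in Apc-deleted and 6.68 and 6.66 in Apc-Prox1-deleted libraries, so the Apc-deleted libraries of series 1 alone lay above the floor. Eif2s3y, a Y-linked translation factor, read 6.70, 6.69, 6.85 and 6.62 in Apc-deleted and 8.22 and 8.31 in Apc-Prox1-deleted libraries of series 1, while a second probe stayed at the floor and was not tested. Kdm5d, another Y-linked gene, was 0.30 higher (SE 0.05, adjusted p = 0.00168), with all its levels at or below 7.04. The other Y-linked genes tested, Uty (0.08) and Zfy2 (-0.05), did not pass. Of 7 tested X-linked genes that escape inactivation, Xist included, 2 fell and 1 rose, with a median of 0. Kdm6a, an X-linked histone demethylase that escapes inactivation, was 0.68 lower as a group mean, from 9.76 to 9.08, but its call (adjusted p = 0.039) was lost without Apc-Prox1-deleted replicate 1 (0.395) or 2 (0.138) and without Apc-deleted replicate 3 (0.0715) or 4 (0.0948). Ddx3x, an RNA helicase, rose by 0.46 (adjusted p = 0.0299), a call lost without Apc-Prox1-deleted replicate 2 (0.467) and without Apc-deleted replicate 1 (0.0563), 3 (0.0551) or 4 (0.0548). Kdm5c, Pbdc1, Usp9x and Eif2s3x did not pass, with differences from -0.11 to 0.05. The labels do not give the sex of the animals, and in series 1 the deletion of Prox1 and whatever sets these transcripts cannot be told apart.

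**Figure D1:**
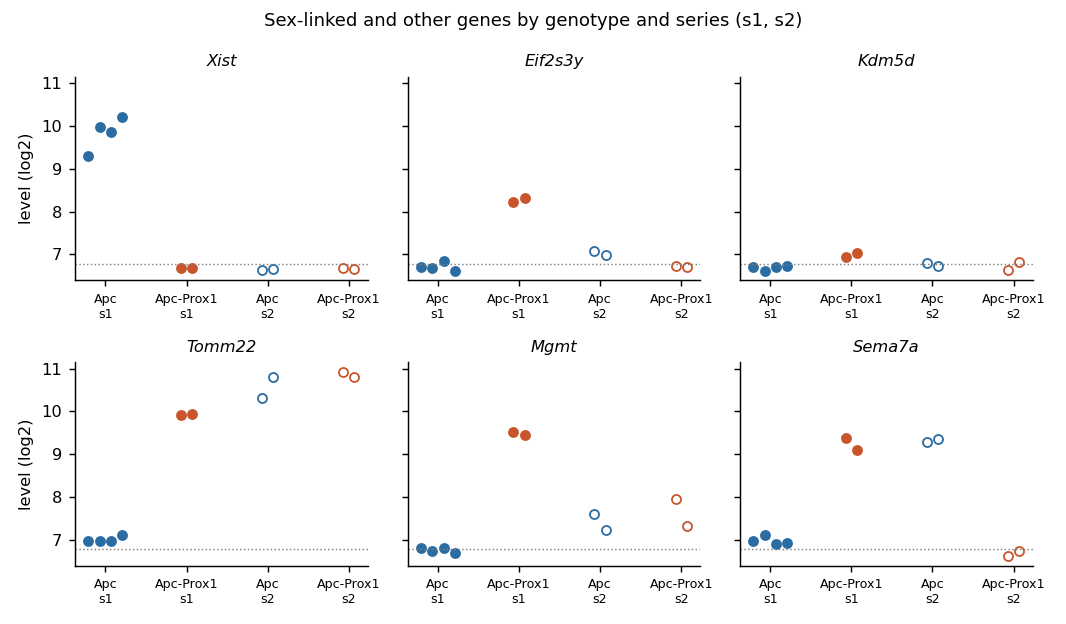
Each panel plots the log2 level of 1 gene in every library used, by genotype and series (s1 and s2), with series 1 filled and series 2 open, and the dotted line marks the array median of 6.78. Xist is high in the 4 Apc-deleted libraries of series 1 alone among the 10 plotted, Eif2s3y in the 2 Apc-Prox1-deleted libraries of series 1, and Tomm22 is near the floor in the Apc-deleted libraries of series 1 alone.

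Prox1 itself was lower in both Apc-Prox1-deleted libraries. Its brighter probe read 9.50, 9.42, 10.44 and 9.89 in Apc-deleted replicates 1 to 4 and 7.85 and 8.29 in Apc-Prox1-deleted replicates 1 and 2. The groups did not overlap, and every Apc-deleted library lay more than 1 log2 unit above both. Prox1 fell 3.35-fold (-1.75, SE 0.25, limma adjusted p = 0.000603), and a dimmer probe gave -1.45 (adjusted p = 0.00183). With all 8 entries labelled series 1, the difference was -1.1 and did not pass (adjusted p = 0.0893), but the Apc-Prox1-deleted group then holds the array that is also labelled Apc-deleted in series 2. With replicate 3 alone added it was -1.38 (adjusted p = 0.0257). Where the probes lie relative to the floxed exons is not given, so they check the labels only in part. Apc, deleted in both groups, had its brightest probe between 7.01 and 7.23 in all 6 libraries and did not pass (0.10, adjusted p = 0.477).

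Of 13085 genes tested, 1540 passed, which is 11.8%: 689 were higher (5.27%) and 851 lower (6.50%) after deletion of Prox1. A change of at least 2-fold was found for 109 of the genes that rose (0.833% of all genes) and for 147 of those that fell (1.12%). The groups did not overlap for 33.8% of all genes, and the median difference of all genes was -0.001. On the probe level 2375 of 25491 probes passed (9.32%), 1173 higher (4.60%) and 1202 lower (4.72%). Leaving out Apc-Prox1-deleted replicate 1 or 2, which leaves that group with 1 library assumed to vary like the others, gave 845 and 763 probes, and taking Apc-deleted replicates 1 and 2 alone as controls gave 1317 against 3708 with replicates 3 and 4 alone.

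**Figure D2:**
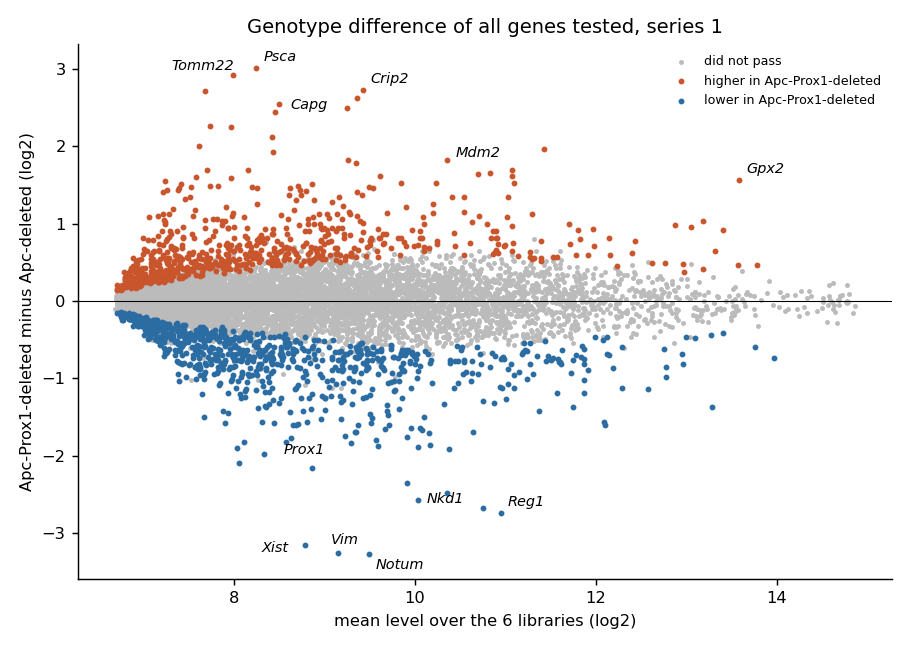
The log2 difference between genotypes (Apc-Prox1-deleted minus Apc-deleted) is plotted against the mean level over the 6 libraries for each of the 13085 genes tested, with the 689 that rose in orange and the 851 that fell in blue. Notum, Vim and Xist are the lowest points and Psca and Tomm22 the highest.

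The largest fall of any named gene was that of Notum. Notum, a secreted enzyme that inactivates Wnt ligands, read 10.23, 9.62, 11.31 and 11.15 in Apc-deleted replicates 1 to 4 and 7.26 and 7.33 in the Apc-Prox1-deleted libraries. It fell 9.72-fold (-3.28, SE 0.36, adjusted p = 7.3e-05), and 2 dimmer probes also fell (-1.23 and -1.08). Nkd1, an inhibitor of Dishevelled, read 10.68, 10.30, 11.46 and 11.13 against 8.21 and 8.43. That is a 5.94-fold fall (-2.57, SE 0.26, adjusted p = 3.74e-05). Tested on the deposited ratios as they are, neither Notum (adjusted p = 0.0804) nor Nkd1 (0.0962) passed. For both genes replicates 3 and 4 were the highest and replicate 2 the lowest of the Apc-deleted libraries. Sp5, a zinc finger repressor switched on by beta-catenin, read 11.43, 11.24, 11.60 and 11.45 against 10.03 and 10.28 (-1.27, SE 0.16, adjusted p = 0.000302). Lgr5, the R-spondin receptor that marks crypt stem cells, fell from 10.15 ± 0.23 (SD, n = 4) to 8.99 ± 0.03 (n = 2), a difference of -1.16 (SE 0.18, adjusted p = 0.000982).

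In the list of Wnt/beta-catenin targets and feedback inhibitors, which holds Prox1 itself, 10 of 22 tested members fell and 2 rose, against 6.50% and 5.27% of all genes. The median difference of the 22 was -0.56. Without Apc-Prox1-deleted replicate 1 or 2 the members that fell numbered 6 and 7. The 2 that rose were the cyclin Ccnd1 and the hyaluronan receptor Cd44. Ccnd1 read 12.49, 12.64, 12.79 and 12.97 against 13.84 and 13.53 (0.96, SE 0.14, adjusted p = 0.000746). Cd44 was at 10.46 ± 0.36 and 11.46 ± 0.02 (1.0, SE 0.21, adjusted p = 0.00762), and its call was lost without Apc-Prox1-deleted replicate 1 (0.0922) or 2 (0.09). The brightest members that did not pass were Sox9 (-0.30, adjusted p = 0.174) and Axin2, the scaffold protein that is a standard Wnt reporter (-0.46, adjusted p = 0.108). The feedback inhibitors Rnf43 (-0.18), Znrf3 (0.08), Nkd2 (-0.07) and Wif1 (-0.16) did not pass either. Axin2 read 11.86 to 12.46 in the Apc-deleted and 11.68 and 11.86 in the Apc-Prox1-deleted libraries.

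The crypt stem cell markers share Sp5, Tnfrsf19, Cd44, Axin2 and Sox9, among others, with the Wnt list, so the counts of these lists are not independent. Of 27 crypt stem cell markers 18 did not pass, among them Olfm4 (-0.28, adjusted p = 0.554) and Ascl2 (-0.79, adjusted p = 0.0932). Among the 27, 8 fell (29.6%, against 6.50% of all genes) and 1, Cd44, rose (3.70%, against 5.27%). The median was -0.28, and 6 and 5 fell without Apc-Prox1-deleted replicate 1 or 2. Scn2b, a sodium channel subunit, read 9.50, 9.29, 9.49 and 9.62 against 8.07 and 7.82 (-1.53, SE 0.15, adjusted p = 3.67e-05). Rgmb, a BMP co-receptor, fell by 0.95 (SE 0.14, adjusted p = 0.00078), and Tnfrsf19, a TNF receptor family member of crypt stem cells, by 1.12 (SE 0.19, adjusted p = 0.00219). The water channel Aqp4 fell by 1.06 (SE 0.17, adjusted p = 0.00136), but not without Apc-Prox1-deleted replicate 2 (0.0718).

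RefSeq promoter windows of GRCm38.p6, 250 bases before to 50 after a start site, were searched on both strands for CTTTGAT, the core TCF/LEF motif. It lay in 3.73% of all 32851 windows and in 3.37% of the genes tested. Of the 10 Wnt list members that fell, 5 had a window, and Sp5 and Tnfrsf19 held the motif. These 2 windows are shown because they belong to members that fell, with the motif in capitals, 5′ to 3′ on the gene's strand: Sp5 at chr2:70474673-70474972 (plus strand) and 1 of the 2 windows of Tnfrsf19 at chr14:61037938-61038237 (minus strand). A match describes these letters and shows no binding.
Sp5: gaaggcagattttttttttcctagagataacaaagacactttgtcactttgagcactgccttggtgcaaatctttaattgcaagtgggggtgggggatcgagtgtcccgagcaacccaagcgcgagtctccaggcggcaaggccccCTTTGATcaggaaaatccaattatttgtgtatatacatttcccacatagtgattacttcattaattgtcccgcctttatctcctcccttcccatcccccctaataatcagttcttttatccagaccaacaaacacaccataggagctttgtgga
Tnfrsf19: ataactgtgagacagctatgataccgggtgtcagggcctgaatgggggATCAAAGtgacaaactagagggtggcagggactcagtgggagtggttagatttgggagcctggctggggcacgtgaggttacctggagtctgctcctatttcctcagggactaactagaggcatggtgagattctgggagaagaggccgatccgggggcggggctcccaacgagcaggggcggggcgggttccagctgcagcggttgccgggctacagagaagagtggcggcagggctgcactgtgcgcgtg

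The BMP pathway opposes Wnt along the crypt axis. Of 20 tested BMP and TGF-beta genes 7 fell (35%, against 6.50% of all genes) and 1 rose (5%, against 5.27%), with a median of -0.08, and 3 and 5 fell without Apc-Prox1-deleted replicate 1 or 2. The ligand Bmp4 read 8.54, 8.14, 9.01 and 8.96 against 6.75 and 6.77, at the floor (-1.90, SE 0.20, adjusted p = 4.54e-05). Tgfbi, a matrix protein induced by TGF-beta, fell 3.52-fold (-1.82, SE 0.24, adjusted p = 0.00036). The helix-loop-helix inhibitors Id3 (-1.13, SE 0.15, adjusted p = 0.000395) and Id1 (-1.06, SE 0.19, adjusted p = 0.00317) fell, the call of Id1 being lost without Apc-Prox1-deleted replicate 1 (0.0711). The member that rose was the ligand Bmp8b (1.14, SE 0.15, adjusted p = 0.000294).

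Of the genes of hormone-secreting cells tested, 6 of 17 transcription factors, 8 of 17 hormone genes and 9 of 17 granins and processing genes fell, against 6.50% of all genes. In bulk samples fewer cells of a type and less RNA per cell cannot be told apart. Neurog3, the factor that starts the enteroendocrine programme, read 10.59, 10.44, 9.65 and 10.17 in Apc-deleted replicates 1 to 4 and 8.05 and 8.62 in the Apc-Prox1-deleted libraries. It fell 3.68-fold (-1.88, SE 0.24, adjusted p = 0.000309). The median of the 17 transcription factors was -0.19, 11 did not pass, and 2 and 4 fell without Apc-Prox1-deleted replicate 1 or 2. Isl1, an islet and gut endocrine factor, fell by 0.42 (SE 0.07, adjusted p = 0.00158) from levels between 7.12 and 7.32. Sox4 fell by 0.92 (SE 0.15, adjusted p = 0.00168), a call lost without Apc-Prox1-deleted replicate 1 (0.0653). Foxa1, the brightest factor that did not pass, was 0.25 higher (adjusted p = 0.577).

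Of the 17 hormone and serotonin genes 9 did not pass, the median was -0.21, and 6 and 2 fell without Apc-Prox1-deleted replicate 1 or 2. Ghrl, which encodes ghrelin, read 10.16, 9.87, 9.14 and 9.13 against 7.55 and 7.29 (-2.16, SE 0.25, adjusted p = 0.000134), and a second probe fell by 1.19 (adjusted p = 0.00154). Here replicates 1 and 2 were the higher Apc-deleted libraries, the reverse of Notum and Vim. Sct, which encodes secretin, read 11.72, 11.19, 10.95 and 10.97 against 9.67 and 9.34 (-1.70, SE 0.22, adjusted p = 0.000286). Gcg, the precursor of glucagon-like peptides, fell by 1.26 (adjusted p = 0.00546) and Tac1, of substance P, by 0.82 (adjusted p = 0.00151), but without Apc-Prox1-deleted replicate 2 neither passed (0.125 and 0.0549). Cck, which encodes cholecystokinin, did not pass, with 9.14, 8.39, 9.09 and 8.80 against 8.56 and 7.25 (-0.95, adjusted p = 0.0561). Of 17 granins and prohormone-processing genes 9 fell, with a median of -0.37, and 6 and 4 without Apc-Prox1-deleted replicate 1 or 2. They included the prohormone-trimming carboxypeptidase Cpe (-1.17, SE 0.14, adjusted p = 0.000198), secretogranin Scg2 (-0.66, SE 0.08, adjusted p = 0.000284) and chromogranin Chga (-0.73, SE 0.13, adjusted p = 0.00361, lost without Apc-Prox1-deleted replicate 2 at 0.0832). In limma's test no member of these 3 lists rose, and none was higher at an unadjusted p under 0.05 either.

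Of 18 tested Paneth cell products, the antimicrobial and digestive proteins of the crypt base, 7 fell (38.9%, against 6.50% of all genes). The median was -0.47, and the count was larger without Apc-Prox1-deleted replicate 1 and smaller without replicate 2. The defensin Defa26 read 13.68, 13.60, 13.70 and 13.97 against 12.54 and 12.20 (-1.37, SE 0.13, adjusted p = 2.09e-05). Defensin genes are near-identical copies, so their probes may share signal. Mptx1, a mucosal pentraxin, read 8.75, 8.26, 9.29 and 8.71 against 6.58 and 6.72 (-2.10, SE 0.20, adjusted p = 2.84e-05), while a dimmer probe for it gave 0.00 (adjusted p = 0.994). Clps, which encodes the lipase cofactor colipase, fell by 1.61 (SE 0.17, adjusted p = 5.49e-05) and the protease Habp2 by 1.53 (SE 0.24, adjusted p = 0.00134). The secreted phospholipase Pla2g2a fell by 1.84 (SE 0.41, adjusted p = 0.012), a call lost without Apc-Prox1-deleted replicate 2 (0.183). Lyz1, Paneth cell lysozyme, was among the brightest genes, at 14.63 to 14.88 in the Apc-deleted and 14.76 and 14.20 in the Apc-Prox1-deleted libraries, and did not pass (-0.28, adjusted p = 0.191).

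Of 4 tested Reg lectins, secreted proteins of injured and regenerating gut, Reg1 and Reg3a fell (50%, against 6.50% of all genes). Reg1 read 12.26, 11.80, 11.35 and 12.02 against 8.99 and 9.25, a 6.68-fold difference (-2.74, SE 0.22, adjusted p = 5.27e-06). Reg3a read 8.82, 8.16, 8.96 and 8.93 against 6.92 and 6.86 (-1.83, SE 0.19, adjusted p = 4.29e-05). Reg3b divided the Apc-deleted libraries instead, with 8.42 and 8.65 in replicates 1 and 2 and 10.41 and 11.15 in replicates 3 and 4, and did not pass (0.31, adjusted p = 0.825).

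Some goblet and absorptive cell genes fell as well. Of 20 goblet cell products 8 fell (40%, against 6.50% of all genes) and 1 rose (5%, near the 5.27% of all genes). The median was -0.33, and fewer fell when either Apc-Prox1-deleted library was left out. Foxa3, a secretory lineage factor (-0.81, SE 0.15, adjusted p = 0.00319), the lectin Zg16 (-1.19, SE 0.23, adjusted p = 0.00473) and the mucin Muc2 (-0.83, SE 0.18, adjusted p = 0.0103) fell. The call of Foxa3 was lost without Apc-Prox1-deleted replicate 1 (0.0851) and those of Zg16 and Muc2 without replicate 2 (0.141 and 0.315). The sialyltransferase St3gal6 rose by 0.71 (adjusted p = 0.0134), a call lost without Apc-Prox1-deleted replicate 1 (0.139) or 2 (0.2) and without Apc-deleted replicate 4 (0.0566). Tff3, a trefoil peptide, did not pass (-0.21, adjusted p = 0.5).

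Of 23 brush border genes 11 fell (47.8%, against 6.50% of all genes) and 1 rose (4.35%, below the 5.27% of all genes). The median was -0.17, but far fewer fell when either Apc-Prox1-deleted library was left out. Sis, the disaccharidase sucrase-isomaltase, read 11.20, 11.07, 11.16 and 11.28 against 8.83 and 8.57, a 5.57-fold fall (-2.48, SE 0.16, adjusted p = 6.76e-07). Espn, which bundles the actin of microvilli, read 10.33, 9.91, 10.34 and 10.29 against 8.72 and 8.40 (-1.66, SE 0.18, adjusted p = 6.9e-05). The member that rose was Xpnpep2, a membrane aminopeptidase (1.30, SE 0.17, adjusted p = 0.000351). The actin-bundling protein villin, Vil1, whose promoter drives the Cre, did not pass (0.29, adjusted p = 0.379).

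**Figure D3:**
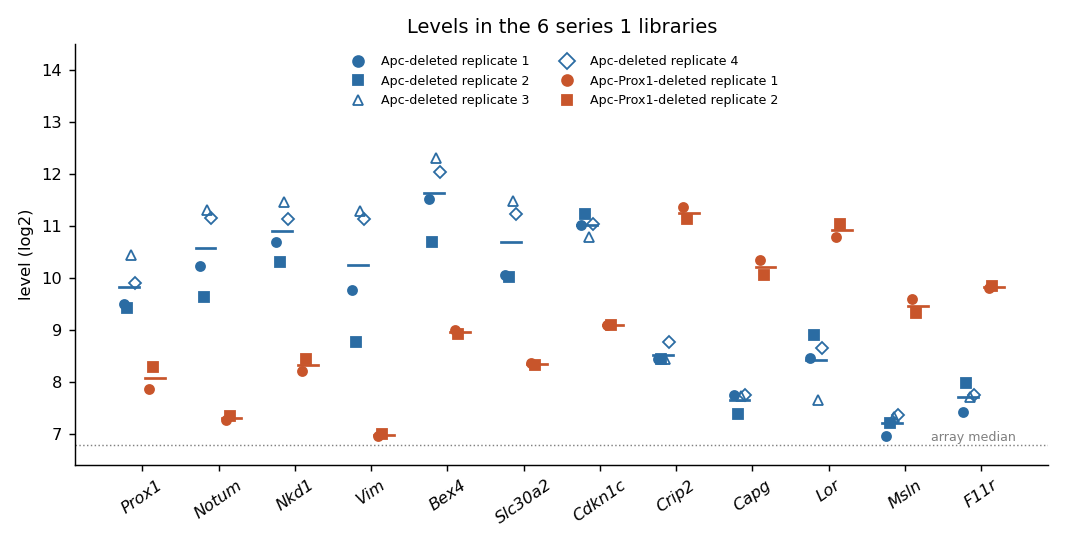
Log2 levels of 12 genes in the 6 series 1 libraries, with 1 symbol per replicate and a bar at each group mean, Apc-deleted in blue and Apc-Prox1-deleted in orange. Among the genes that fell, Prox1, Notum, Nkd1, Vim, Bex4 and Slc30a2 are highest in Apc-deleted replicates 3 and 4. No gene plotted has overlapping groups, which for all but Prox1 was a condition of being chosen (33.8% of all genes do not overlap).

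Outside the lists described so far, the other large falls were in genes of varied function. Some of them belong to other lists, as Vim does to the keratins and intermediate filaments below. Vim, the intermediate filament vimentin, read 9.76, 8.76, 11.29 and 11.14 in Apc-deleted replicates 1 to 4 and lay next to the floor in the Apc-Prox1-deleted libraries, at 6.96 and 7.00. Its difference was -3.26 (SE 0.51, adjusted p = 0.00116), and its call was lost with a robust variance prior (0.108). Of the other 17 fibroblast and smooth muscle markers on the array none exceeded 7.85. Bex4 read 11.52, 10.69, 12.30 and 12.04 against 9.0 and 8.91 (-2.68, SE 0.33, adjusted p = 0.000181), and a second probe fell by 2.58. The zinc transporter Slc30a2 read 10.06, 10.02, 11.48 and 11.22 against 8.36 and 8.33 (-2.35, SE 0.35, adjusted p = 0.000765). Cdkn1c, the cyclin-dependent kinase inhibitor p57, was steadier across the Apc-deleted libraries, with 11.02, 11.22, 10.79 and 11.03 against 9.10 and 9.10 (-1.91, SE 0.17, adjusted p = 1.22e-05). Sbspon, a thrombospondin-repeat protein, fell by 1.98 (SE 0.26, adjusted p = 0.00036), with a second, dim probe at -0.07. Chac1, which degrades glutathione, ranged from 9.48 to 11.58 in the Apc-deleted libraries against 8.77 in both others (-1.89, SE 0.39, adjusted p = 0.00674), and its call was lost without Apc-Prox1-deleted replicate 1 (0.0574) or 2 (0.0615).

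Of 22 tested genes of fetal-like and regenerative epithelium, a state that injured intestine enters, 14 rose, against 5.27% of all genes, and the median was 0.76. The members that rose numbered 10 and 11 without Apc-Prox1-deleted replicate 1 or 2 and 13 and 16 with Apc-deleted replicates 1 and 2 or 3 and 4 as the only controls. Psca, a membrane-anchored antigen, read 7.2, 7.28, 7.24 and 7.25 in Apc-deleted replicates 1 to 4 and 10.19 and 10.32 in the Apc-Prox1-deleted libraries, an 8.08-fold difference (3.01, SE 0.12, adjusted p = 3.63e-09), but it did not pass on the deposited ratios (0.219) or with Apc-Prox1-deleted replicate 3 added (0.0542). Msln, the surface protein mesothelin, read 6.96, 7.2, 7.32 and 7.36 against 9.59 and 9.33 (2.25, SE 0.13, adjusted p = 3.95e-07). Both genes lay near the floor in every Apc-deleted library. The gap junction gene Gja1 (1.12, SE 0.10, adjusted p = 9.05e-06) and the annexins Anxa8 (0.79, SE 0.07, adjusted p = 1.3e-05) and Anxa1 (0.78, SE 0.08, adjusted p = 3.42e-05) rose from the floor to levels between 7.46 and 8.16. The calcium-binding S100a11 rose at a high level, from 12.84 ± 0.06 to 13.86 ± 0.06 (1.03, SE 0.10, adjusted p = 3.53e-05). Krt23, the brightest member that did not pass, had a mean of 13.19 in each group (adjusted p = 0.996).

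Of 39 actin cytoskeleton genes 9 rose (23.1%, against 5.27% of all genes) and 3 fell (7.69%, near the 6.50% of all genes), with a median of 0.20, and 5 rose without replicate 1 and 5 without replicate 2 of the Apc-Prox1-deleted group. Capg, which caps actin filaments, read 7.74, 7.38, 7.73 and 7.75 against 10.35 and 10.05 (2.55, SE 0.15, adjusted p = 3.95e-07). Crip2, a LIM domain protein, read 8.44, 8.43, 8.43 and 8.76 against 11.36 and 11.13 (2.73, SE 0.16, adjusted p = 4.39e-07). The 3 that fell were Espn, the actin-severing Scin (-1.60, SE 0.14, adjusted p = 9.05e-06) and Avil (-0.39, adjusted p = 0.00361), the last not without Apc-Prox1-deleted replicate 2 (0.152). Actb itself, at 14.06 to 14.71 and 14.41 and 14.47, did not pass (0.13, adjusted p = 0.661). Of 17 keratins and intermediate filament genes 7 rose (41.2%, against 5.27% of all genes), and fewer when either Apc-Prox1-deleted library was left out. The 2 that fell, Vim and Krt17 (-0.63, SE 0.10, adjusted p = 0.000882), were 11.8%, against 6.50% of all genes. Krt4 rose by 0.90 (SE 0.12, adjusted p = 0.000309) and Krt19 by 0.81 (SE 0.14, adjusted p = 0.00208), the latter not without Apc-Prox1-deleted replicate 1 (0.0672).

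Of 23 integrin, laminin, basement membrane collagen and receptor genes 5 rose (21.7%, against 5.27% of all genes), Col4a2, Col4a1, Itga3, Cd44 and Itgb4. The 2 that fell, Lamb2 and Itga1, were 8.7%, close to the 6.50% of all genes. The collagen IV chains Col4a2 and Col4a1 rose from the floor, to 8.15 and 8.14 (1.41, SE 0.09, adjusted p = 4.39e-07) and to 7.92 and 7.87 (1.1, SE 0.07, adjusted p = 6.41e-07). Lamb2, a laminin chain, fell by 0.80 (SE 0.11, adjusted p = 0.00058). The calls of Itgb4 and Itga1 were lost without either Apc-Prox1-deleted library (adjusted p = 0.143 to 0.311), that of Itga3 without replicate 1 (0.063), and that of Itgb4 also without Apc-deleted replicate 1, 3 or 4 (0.0555, 0.0726 and 0.123). Of 21 YAP/TEAD targets and components, which respond to cell stretch and injury, 9 rose (42.9%, against 5.27% of all genes). The median was 0.15, and fewer rose when either Apc-Prox1-deleted library was left out. Ccn2, a matricellular growth factor, ranged from 7.80 to 9.36 in the Apc-deleted libraries against 10.56 and 10.51 (1.79, SE 0.31, adjusted p = 0.00219). The receptor kinase Axl (0.91, SE 0.12, adjusted p = 0.00036) and endothelin, Edn1 (1.13, SE 0.21, adjusted p = 0.00369), rose, Edn1 not without Apc-Prox1-deleted replicate 1 (0.0583). Yap1 itself did not pass (-0.02, adjusted p = 0.968).

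Of 30 tested targets of p53, the DNA damage regulator, 14 rose (46.7%, against 5.27% of all genes). Falls numbered 2 (6.67%, near the 6.50% of all genes). The median was 0.37, and fewer rose when either Apc-Prox1-deleted library was left out. Mdm2, the ubiquitin ligase that restrains p53, read 9.49, 10.03, 9.69 and 9.76 against 11.63 and 11.50 (1.82, SE 0.18, adjusted p = 3.17e-05). The cyclin Ccng1 read 10.42, 10.31, 10.95 and 10.67 against 12.26 and 11.97 (1.53, SE 0.19, adjusted p = 0.000251). Gtse1, a regulator of p53 in G2, rose by 1.35 (SE 0.16, adjusted p = 0.000139) and the death receptor Fas by 0.91 (SE 0.08, adjusted p = 1.86e-05) from near the floor. Cdkn1a, the cell cycle inhibitor p21, read 10.81, 10.57, 11.72 and 11.37 against 11.92 and 11.61 and did not pass (0.65, adjusted p = 0.156). The 2 that fell were Gadd45a (-1.20, SE 0.14, adjusted p = 0.000138) and Sesn1 (-0.61, adjusted p = 0.0282), and Sesn1 did not pass without Apc-Prox1-deleted replicate 1 (0.148) or 2 (0.369) and without Apc-deleted replicate 4 (0.0571).

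Of 46 tested genes of the NRF2 pathway, which answers oxidative stress, and of glutathione metabolism, 22 rose (47.8%, against 5.27% of all genes). Falls numbered 4 (8.7%, close to the 6.50% of all genes), and the median was 0.26. Without Apc-Prox1-deleted replicate 1 or 2 the genes that rose numbered 10 and 16. Gpx2, the glutathione peroxidase of gut epithelium, read 13.23, 13.17, 12.86 and 12.99 against 14.65 and 14.59 (1.56, SE 0.11, adjusted p = 1.71e-06). Akr1b8, an aldo-keto reductase, read 7.24, 7.27, 8.14 and 7.92 against 10.41 and 9.77 (2.45, SE 0.25, adjusted p = 3.74e-05). The glutathione transferase Gsta4 rose by 1.64 (SE 0.19, adjusted p = 0.000134) and the retinal-oxidising Aldh1a1 by 1.1 (SE 0.11, adjusted p = 3.17e-05). The 4 that fell were Gstm2 (-0.89), Blvrb (-1.16), Gstt1 (-1.23) and Gstm6 (-1.14), with adjusted p of 0.00206, 0.00535, 0.00827 and 0.0256, and without Apc-Prox1-deleted replicate 2 none of them passed (0.0828, 0.106, 0.215 and 0.276). Gstm6 was also lost without Apc-Prox1-deleted replicate 1 (0.079) and Apc-deleted replicate 1 (0.0646) or 4 (0.0625). The ferritin chain Fth1, the brightest member, did not pass (-0.27, adjusted p = 0.0981).

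The antioxidant response motif was looked for in the same way, as TGANTCAGC on both strands. It lay in 1.19% of all windows, in 1.37% of the genes tested and in 2 of the 19 members that rose and had a window, Srxn1 and Me1, which were named for this after their values were seen. Srxn1, which repairs oxidised peroxiredoxins, was at 8.22 ± 0.12 (n = 4) and 8.99 ± 0.18 (n = 2) (0.78, SE 0.14, adjusted p = 0.00261, lost without Apc-Prox1-deleted replicate 1 at 0.0797). Me1, an NADPH-producing malic enzyme, stayed below 7.21 (0.28, SE 0.07, adjusted p = 0.014) and was lost without Apc-Prox1-deleted replicate 1 (0.153) or 2 (0.0663). Their windows, with the motif in capitals, lie at chr2:152105274-152105573 (plus strand) and, 1 of 2 windows, at chr9:86695865-86696164 (minus strand).
Srxn1: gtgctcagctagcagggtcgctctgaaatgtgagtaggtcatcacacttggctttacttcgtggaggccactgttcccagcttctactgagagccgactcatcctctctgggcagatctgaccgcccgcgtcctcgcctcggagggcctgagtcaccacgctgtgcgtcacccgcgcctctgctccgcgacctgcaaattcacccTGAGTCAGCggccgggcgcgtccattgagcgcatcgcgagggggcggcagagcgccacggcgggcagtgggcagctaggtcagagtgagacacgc
Me1: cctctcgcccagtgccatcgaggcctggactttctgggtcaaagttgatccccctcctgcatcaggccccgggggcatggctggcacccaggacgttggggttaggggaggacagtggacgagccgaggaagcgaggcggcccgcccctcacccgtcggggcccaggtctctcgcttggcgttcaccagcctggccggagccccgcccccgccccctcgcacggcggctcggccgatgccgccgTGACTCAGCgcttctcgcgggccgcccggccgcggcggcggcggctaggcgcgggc

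**Figure D4:**
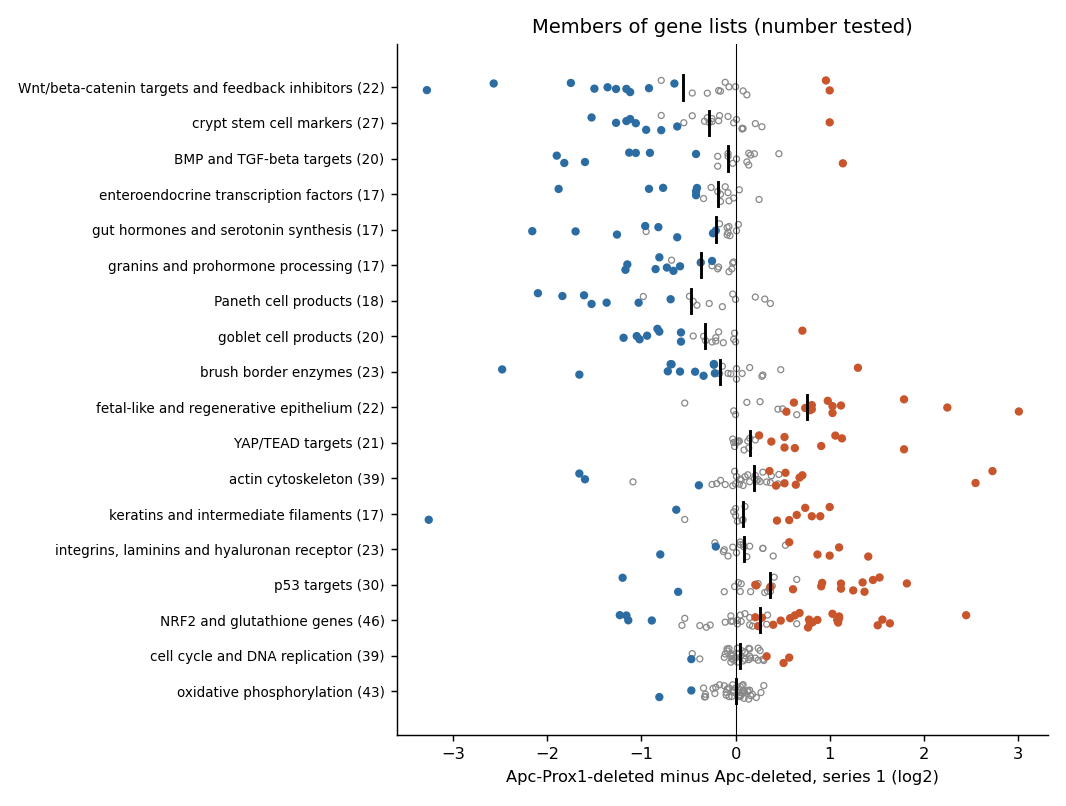
Each point is the log2 difference between genotypes of 1 tested list member in series 1, filled in blue or orange where it fell or rose and open where it did not pass, with the list's median as a black bar and the number tested in brackets. In the fetal-like list 14 members are filled to the right of 0 and none to the left, while the 3 enteroendocrine lists have no filled point to the right of 0.

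Other leading rises had no list in common. Wfdc2, a secreted protease inhibitor, and Lor, the envelope protein loricrin, rose by 2.63 (SE 0.39, adjusted p = 0.000765) and 2.50 (SE 0.26, adjusted p = 5.65e-05), with Wfdc2 from 7.87, 7.67, 9.31 and 9.06 to 11.49 and 10.72; its call was lost with a robust variance prior (0.0588). The tight junction protein F11r read 7.41, 7.98, 7.71 and 7.75 against 9.81 and 9.85 (2.12, SE 0.15, adjusted p = 1.74e-06). Uap1, which makes the sugar nucleotide UDP-N-acetylglucosamine, rose from near the floor by 2.00 (SE 0.10, adjusted p = 6.67e-08). The lectin Lgals3 (1.96, SE 0.26), the mTOR inhibitor Ddit4l (1.93, SE 0.16) and the large scaffold Ahnak (1.82, SE 0.16) were also among the 15 largest rises, with adjusted p of 0.00037, 8.09e-06 and 9.14e-06. The largest rise of any probe belonged to one that has no symbol here, from 8.88, 8.52, 8.44 and 8.89 to 13.86 and 13.78 (5.13, adjusted p = 2.08e-09), and in series 2 it stayed between 7.30 and 7.82.

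Of 39 cell cycle and DNA replication genes 3 rose, Cdc20 (0.57), Rrm2 (0.51) and Ect2 (0.33), and 1 fell, Kif11 (-0.47), with a median of 0.05. These shares were 7.69% higher and 2.56% lower, against 5.27% and 6.50% of all genes. All 4 calls were lost without either Apc-Prox1-deleted library (adjusted p = 0.13 to 0.382) and without Apc-deleted replicate 4 (0.0571 to 0.07), and that of Cdc20 also without Apc-deleted replicate 3 (0.0555). Of 43 oxidative phosphorylation genes Ndufb10 (-0.81) and Sdhc (-0.47) fell, the share of 4.65% being below the 6.50% of all genes, and both calls were lost without either Apc-Prox1-deleted library (0.0832 to 0.289), that of Sdhc also without Apc-deleted replicate 3 (0.0554) or 4 (0.11).

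Markers of other cell types were checked as whole lists. Of 10 epithelial markers on the array 9 exceeded 7.5, the probe of Epcam staying at the floor. Their summed level on the log2 scale ran from 14.19 to 14.49 in Apc-deleted and from 14.72 to 14.90 in Apc-Prox1-deleted libraries. Levels were added before taking log2, so bright members such as Krt8 (means 13.10 and 13.76) weigh most. Cdx2 (11.24 and 11.10), Elf3 (10.94 and 10.80), Cdx1 (9.42 and 9.18) and Ocln (8.08 and 7.82) had lower means after Prox1 deletion, and the other members higher ones. Of the 10, 2 rose (20%, against 5.27% of all genes) and 8 did not pass. The summed fibroblast and smooth muscle markers ran from 11.21 to 12.09 and from 10.97 to 10.99, with Vim the only member that fell and the collagens Col1a2 and Col3a1 at the floor. The summed immune markers ran from 10.97 to 11.03 and from 11.14 to 11.16. Of 9 tested immune markers Cd14 (0.95, SE 0.12, adjusted p = 0.000304) and Laptm5 (0.34, adjusted p = 0.00797, lost without Apc-Prox1-deleted replicate 1 at 0.108) rose, while the T cell marker Cd3e lay at the floor. Endothelial and lymphatic markers ran from 11.32 to 11.47 and from 11.16 to 11.25, and neuronal and glial markers from 10.36 to 10.41 and from 10.31 to 10.34. Of 13 tested endothelial and lymphatic markers 1 rose (7.69%, against 5.27% of all genes) and none fell. Of 7 tested neuronal and glial markers 1 fell (14.3%, against 6.50% of all genes) and none rose. The part of these cell types in the gene groups above was not tested.

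The 40 genes nearest Prox1 on chromosome 1 among those tested, 20 on each side, held 6 that passed (15%), against 11.9% of the chromosome and 11.8% of all genes. Esrrg, an orphan nuclear receptor, had the largest difference of the 6 (-1.25, adjusted p = 0.000483), followed by Nenf (-0.98, adjusted p = 0.00301) and Ptpn14 (0.52, adjusted p = 0.00549). The share passing ran from 7.57% on chromosome 18, which carries Apc, to 14.4% on chromosome 14 among the autosomes and was 10.5% on X. Without Apc-Prox1-deleted replicate 1 or 2 the neighbours that passed numbered 2 in each case.

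The series 1 differences were then set beside those of series 2, whose 2 Apc-deleted and 2 Apc-Prox1-deleted libraries are not shared with series 1. Of the 1540 genes that passed in series 1, 432 passed in the same direction in series 2, which is 28.1% of the series 1 calls and 64.9% of the 666 series 2 calls (5.09% of all genes), and 14 passed in the opposite direction. The sign was the same in series 2 for 1400 of the 1540 (90.9%), called there or not, and that share over all genes was not computed. The difference between the series itself passed for 86 of 13085 genes (0.657%), 65 of them called in series 1. That count was 36 and 49 without Apc-Prox1-deleted series 1 replicate 1 or 2 and 39 without Apc-deleted series 2 replicate 1. Notum (-3.28 and -2.96), Vim (-3.26 and -4.05), Slc30a2 (-2.35 and -2.34), Cdkn1c (-1.91 and -2.04), Capg (2.55 and 1.93) and Mdm2 (1.82 and 1.23) had differences of the same sign that passed in each series, in that order.

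The genes with the smallest p for a difference between series included several that were near the floor in 1 group of series 1. Sema7a, a membrane semaphorin, read 6.97, 7.12, 6.91 and 6.93 in Apc-deleted and 9.38 and 9.10 in Apc-Prox1-deleted libraries of series 1, but 9.28 and 9.35 in Apc-deleted and 6.63 and 6.73 in Apc-Prox1-deleted libraries of series 2. Its differences were 2.26 and -2.63, and they differed by 4.89 (SE 0.18, interaction adjusted p = 4.2e-11). Cptp, a ceramide-1-phosphate carrier (-1.04 and 1.33), the steroidogenic enzyme Cyp11a1 (1.09 and -0.88) and the matrix proteoglycan Prelp (-1.59 and 1.27) also turned sign between the series, with interaction adjusted p of 3.82e-08, 1.25e-06 and 1.68e-06. So did Xpnpep2 (1.30 and -1.36, interaction adjusted p = 9.72e-06). Tomm22, of the mitochondrial import pore, was near the floor in the Apc-deleted libraries of series 1 alone, at 6.97 to 7.12, and read 9.92 and 9.94 after Prox1 deletion and 10.32 to 10.93 in series 2. Its series 1 difference of 2.92 stood beside 0.30 in series 2 (interaction adjusted p = 5.21e-06), and a dimmer probe gave 0.18 in series 1 (adjusted p = 0.0558). Mgmt, a DNA repair methyltransferase, was high in the Apc-Prox1-deleted libraries of series 1 alone, at 9.51 and 9.46 against 6.70 to 6.81 in the Apc-deleted ones and 7.22 to 7.96 in series 2. On the deposited ratios neither Tomm22 (0.963) nor Mgmt (0.0532) passed in series 1. Psca followed the same pattern, with a difference of 3.01 in series 1 and 0.34 in series 2 (interaction adjusted p = 1.25e-06).

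Several genes of differentiated cells that fell in series 1 did not pass as lower in series 2. Reg1 turned sign, with 1.38 in series 2, where the Apc-deleted libraries read 7.33 and 7.11 against 11.35 to 12.26 in series 1 (interaction adjusted p = 4.62e-06). Sis (-2.48 and -0.15), Mptx1 (-2.10 and -0.14), Reg3a (-1.83 and 0.02), Bmp4 (-1.90 and -0.04), Clps (-1.61 and -0.17), Habp2 (-1.53 and 0.26), Scin (-1.60 and 0.25) and Muc2 (-0.83 and 0.61) each differed between the series, with interaction adjusted p from 0.000851 to 0.0339. Among the genes that rose, Msln (2.25 and 0.93), Crip2 (2.73 and 1.42), Gja1 (1.12 and 0.42), Anxa1 (0.78 and 0.24) and Aldh1a1 (1.1 and 0.28) had larger differences in series 1, with interaction adjusted p from 0.0159 to 0.0498. Scn2b fell less in series 1 (-1.53 and -2.55, interaction adjusted p = 0.0397). For Neurog3 (-1.88 and -1.39), Ghrl (-2.16 and -1.17), Lgr5 (-1.16 and -0.64) and Gpx2 (1.56 and 1.02) the difference between series did not pass, which does not show that the series were alike.

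**Figure D5:**
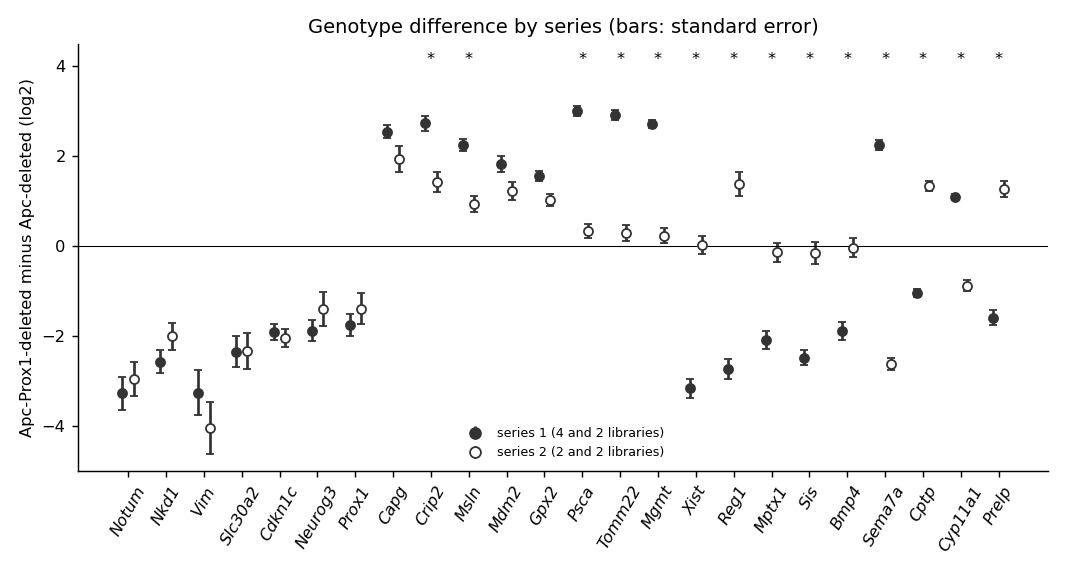
Genotype differences (log2) of 24 genes in series 1 (filled) and series 2 (open), with standard errors as bars and an asterisk where the difference between series passed. Notum, Nkd1, Vim, Slc30a2 and Cdkn1c fell in each series, while Sema7a, Reg1, Cptp, Cyp11a1 and Prelp lie on opposite sides of 0.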

How the data were processed

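Each series was measured on Illumina mouse arrays, and the values used were the deposited ratio values, 1 per probe and entry. Read from the values, the authors had divided each log2 level by the probe's median over its series, since every probe has a median ratio of 1, and background correction and normalization before that are not given in the sources used here. Log2 levels were recovered by searching divisors from 6 to 16 for the one that turns a probe's ratios into whole steps of 0.01. This worked for 45248 of 45281 probes, and 8285 had a single possible divisor in series 1, so for the others the level, and with it the size of a difference, depends on the smallest divisor having been taken. The signals in a second deposited table were not used, because the names of its 28 value columns match no label.

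Of 91 pairs of entries, 2 were copies (largest difference 0.0143 on the log2 scale, against at least 1.17 for the others), so the 14 entries hold 12 arrays. Levels were quantile normalized over the 14 entries, and probes above 6.78 in at least 2 of the 6 libraries were kept (25491, with 19757 removed). limma 3.58.1 in R 4.3.3 fitted lmFit and eBayes with a variance trend, with Benjamini-Hochberg adjustment over all probes tested. All adjusted p-values in the text come from limma. The difference between series was the interaction in a fit of 4 groups over 10 libraries. The series 1 fit and the recovery of levels were tested on simulated data, and the fit of 4 groups was not. The file was expected to hold log2 values, so the recovery of levels was an added step before the planned test.

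Genes were named through the platform annotation, with symbols updated by gene ID. The text names Prox1, Apc, sex-linked genes, the 15 largest rises and falls that passed without overlap, up to 6 members of a list with the smallest p, up to 2 bright ones that did not pass, members that went against their list, and the 10 genes with the smallest interaction p. The members and the 40 lists were chosen with earlier results of these data known. Alternatives covered normalization, scale, filter, divisors, variance model, the copied entries, each library left out and a replicate block.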

Additional observations from a re-analysis of the deposited data

Results flagged for a closer look

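The limma interaction test passed (adjusted p under 0.05) for 25 of the 124 genes named here, against 0.657% of all genes. For these genes the genotype difference in series 1 differed from that in series 2. Some were named because their interaction p was among the smallest, so their passing was fixed by that choice. The 25 are therefore not an independent count. The values below are the series 1 difference minus the series 2 difference on the log2 scale. It was -3.18 for Xist and 1.85 for Eif2s3y, the sex-linked pair. Among genes lower in series 1 it was -4.11 for Reg1, -2.86 for Prelp, -2.37 for Cptp, -2.33 for Sis, -1.96 for Mptx1, -1.87 for Bmp4, -1.85 for Reg3a, -1.85 for Scin, -1.79 for Habp2, -1.44 for Clps and -1.44 for Muc2. It was 1.03 for Scn2b, which fell in both series. Among genes higher in series 1 it was 4.89 for Sema7a, 2.68 for Psca, 2.66 for Xpnpep2, 2.61 for Tomm22, 2.48 for Mgmt, 1.97 for Cyp11a1, 1.32 for Msln, 1.31 for Crip2, 0.81 for Aldh1a1, 0.71 for Gja1 and 0.54 for Anxa1.

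In 6 of the 124 genes named here 1 of the 4 Apc-deleted libraries stood apart, measured as its gap to the nearest library over the range of the group. The gap was 0.955 for Sox9, 0.889 for Espn, 0.946 for Capg and 0.936 for Col4a1 in replicate 2, and 0.97 for Crip2 and 0.916 for Tomm22 in replicate 4. Chance flags about 1 in 20 groups, and 6 of 124 is close to that rate.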

How the results depend on the processing

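The fall of Prox1 passed under every alternative run except with all 8 entries labelled series 1, copies included (-1.1, adjusted p = 0.0893), and ran from -1.96 to -1.53 with a library left out. Of 2375 probes, 1434 passed when only probes with 1 possible divisor were tested (fewer were tested), 4560 with array weights, 1330 with all 8 entries, 1422 with Apc-Prox1-deleted replicate 3 added, and 763 to 3083 with a library left out. With Apc-deleted replicates 1 and 2 as the only controls, chosen after seeing the data, 1317 passed, and 3708 with replicates 3 and 4. The 233 different list genes that passed became 141 with all 8 entries, 155 with replicate 3 added and 120 to 271 with a library left out. The 6 neighbours of Prox1 that passed became 2 with 1 possible divisor, 10 with array weights, 2 with Apc-deleted replicates 1 and 2 as controls, and 2 to 8 with a library left out. The 86 differences between series became 34 with all 14 entries as labelled and 36 to 106 with a library left out. The causes were not tested. Of 110 named genes that passed, 96 did so on the deposited ratios as they are, where Notum, Nkd1, Psca, Tomm22, Mgmt, Ccn2, Chac1, Cpe, Cptp, Espn, Id3, Pla2g2a, Blvrb and Gstm6 did not (adjusted p of 0.0532 to 0.963). With all 8 entries 67 passed, and with replicate 3 added 83. Of the 110, Ddx3x alone changed sign under any of the 23 settings run, to -0.12 with all 8 entries. Signal over background limits genes that end at the array median.

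With the replicate number as a replicate block 2014 probes passed, and 103 of the 110 named genes kept their call. Prox1 was at -1.39, and 213 different list genes passed. Same-numbered libraries had deviations correlated at -0.03 and 0.19 over 2 pairs. With 2 Apc-Prox1-deleted libraries the deviations mirror each other, so these values cannot show whether the numbers pair the libraries, and the labels do not say that they do.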
